A study of Homo sapiens with 6 samples.

Results

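The epidermal differentiation complex is a run of genes on the long arm of chromosome 1 that encode most of the building blocks of the outer skin layer. Its genes were taken by symbol from the gene-level table: every SPRR, LCE and S100A gene followed by a digit, 7 genes for fused S100 proteins (FLG, FLG2, HRNR, RPTN, TCHH, TCHHL1 and CRNN), and IVL, LORICRIN, KPRP, PGLYRP3 and PGLYRP4. That gave 58 genes of 22411 with a single symbol, each read by 1 transcript cluster (the probes that together stand for 1 gene). They fell into 11 SPRR, 18 LCE, 17 S100A, 7 fused S100 and 5 further genes. No measured value was used to choose them.

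The cells were HaCaT, an immortal line that arose from human skin keratinocytes in culture, grown in high-glucose DMEM with serum. One group was given X-rays to a dose of 20 Gy, delivered at a rate of 1.15 Gy per min, the other a mock exposure of 0 Gy, and RNA was collected after 48 h. Each group held 3 arrays, numbered 1 to 3 alike in both groups, and the labels call the cultures biological replicates without saying whether they were grown on separate days. Irradiated arrays were compared with mock arrays of the same number, which the labels do not state to be sister cultures. These are monocultures of 1 immortal line grown in medium, with no dermis, no air interface and no leukocytes.

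Signals are the deposited log2 values, whose array medians ran from 4.53 to 4.66. Brightness depends on the probes, so levels are compared between arrays and never between genes. The brightest of 23 background control sets averaged 6.01 over the arrays, and this value, from here on the background limit, was passed by the mean of 15 of the 58 genes (9324 of 22411 overall). On single arrays the brightest control set ran from 5.52 to 7.25. All 10 measured keratinocyte markers of 13 listed lay above the limit on average, among them KRT5, which ran from 16.72 to 18.21. The mean over that list was 13.8 to 14.4 on mock and 13.7 to 14.3 on irradiated arrays. Markers of leukocytes (8 measured of 9), fibroblasts (6 of 7), melanocytes (4 of 5), endothelium (5 of 5) and Merkel cells (4 of 4) had 0 genes above it. The mean log2 signal over the leukocyte list was 4.13 to 4.29 on mock and 4.19 to 4.36 on irradiated arrays, which bears on the S100A8 and S100A9 values below, since myeloid cells carry both transcripts.

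When a keratinocyte leaves the basal layer it switches on these genes in steps. Involucrin (IVL) and the small proline-rich proteins (SPRR) are cross-linked by transglutaminases beneath the membrane, loricrin and the late cornified envelope (LCE) proteins reinforce that shell, and filaggrin (FLG) packs keratin filaments and is later broken down into water-holding amino acids. S100A proteins are small calcium-binding proteins, several of which serve as antimicrobial or alarm signals, and PGLYRP3 and PGLYRP4 bind bacterial peptidoglycan. AP-1 transcription factors are known to drive several of these genes through sites near the transcription start.

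Before irradiation is considered, the arrays have to be set apart by culture number, because number 3 differed from numbers 1 and 2 in SPRR1B, IVL and SPRR1A by far more than irradiated differed from mock. SPRR1B, a cross-linked envelope precursor, read 6.43, 6.39 and 11.53 on mock arrays 1, 2 and 3, and 6.61, 7.06 and 12.11 on the irradiated arrays of the same numbers. Both number 3 arrays thus stood alone, and irradiated and mock arrays overlapped. The means of the 3 numbers spanned 5.30 on the log2 scale, or 39.4-fold, and only 5 of the 9324 genes above the limit spanned more. SPRR1B lay under the brightest control set of the array itself on mock array 1 (6.88) and irradiated array 2 (7.25). The exact fold is therefore uncertain.

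IVL read 6.96, 6.16 and 10.97 on mock arrays and 7.79, 5.89 and 10.69 on irradiated arrays. Number 2 was lowest and number 3 highest in both groups, and because irradiated array 2 lay under the limit the difference between them was at least 26.8-fold. SPRR1A, the close paralog of SPRR1B, read 5.39, 5.86 and 8.80 on mock and 5.82, 6.01 and 8.83 on irradiated arrays. It was above the limit on the number 3 arrays only, where it was at least 6.99-fold higher than on the others, so its mean passed the limit through number 3 alone.

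Both peptidoglycan recognition genes were likewise highest on number 3 in each group. PGLYRP4 read 4.98, 4.75 and 7.29 on mock and 4.83, 4.70 and 6.47 on irradiated arrays, and PGLYRP3 4.65, 4.25 and 6.61 on mock and 4.82, 4.20 and 5.86 on irradiated arrays. PGLYRP4 passed the limit on the number 3 arrays only, and PGLYRP3 on mock array 3 only. In bulk RNA such a difference cannot be split into more cells of a kind and more transcript per cell.

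Filaggrin departed from this order. FLG read 10.32, 8.08 and 8.23 on mock arrays 1, 2 and 3 and 10.60, 8.79 and 8.73 on irradiated arrays, so that number 1 was highest in both groups and numbers 2 and 3 lay close together. Its numbers spanned 2.03, or 4.07-fold. S100A7 (psoriasin, an antimicrobial protein) was also highest on number 1, by 0.88 over the mean of the other mock arrays and by 0.56 over that of the other irradiated arrays.

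**Figure D1:**
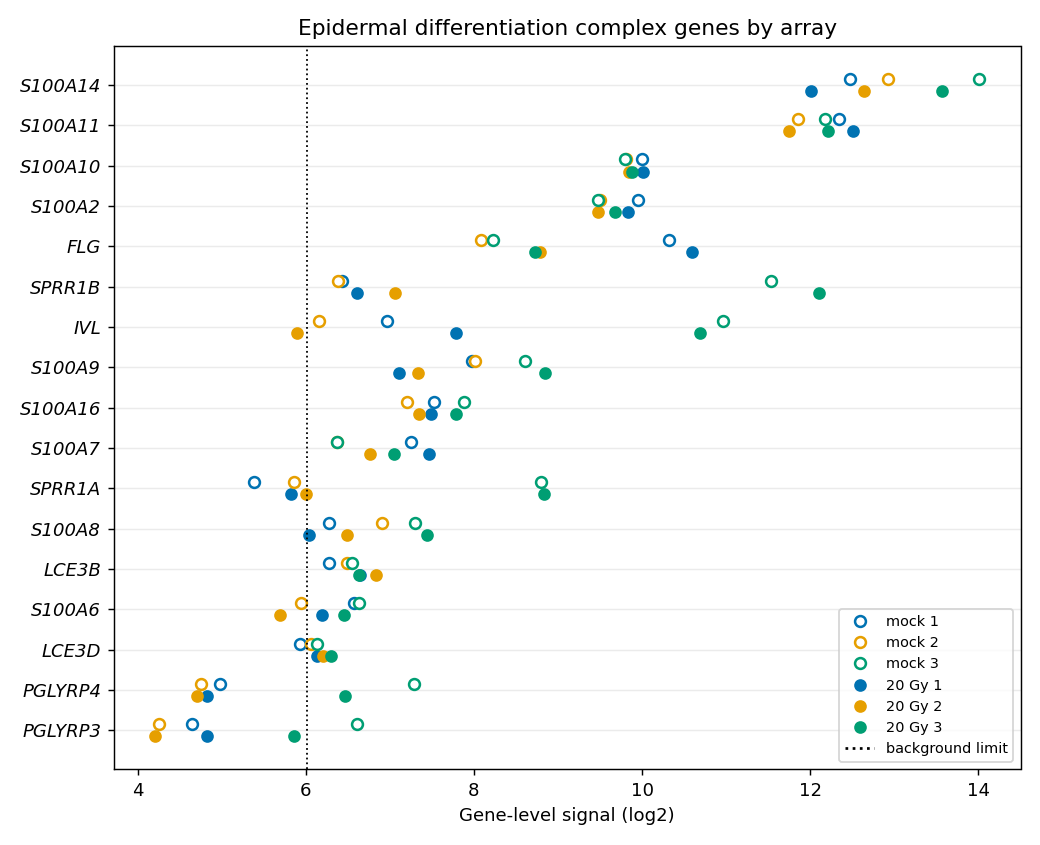
Gene-level log2 signal (x axis) of the 15 genes whose mean lies above the background limit of 6.01 (dotted line) and of PGLYRP3 and PGLYRP4, by array. Open points are mock and filled points 20 Gy arrays, and colours give the culture number. SPRR1B, IVL, SPRR1A, PGLYRP4 and PGLYRP3 sit far to the right on both number 3 arrays, while FLG does so on both number 1 arrays.

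Among the S100A genes, S100A14, S100A8 and S100A9 were highest on number 3 in both groups. S100A14, an S100 protein of epithelial cells, read 12.48, 12.92 and 14.01 on mock and 12.01, 12.65 and 13.57 on irradiated arrays. S100A8 and S100A9, which form the heterodimer calprotectin, had numbers that spanned 1.22 and 1.19. S100A10, S100A11, S100A2 and S100A16 spanned less, from 0.18 for S100A10 to 0.63 for S100A11.

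In limma's moderated F-test of the number terms, 12 of the 15 genes above the limit differed between numbers, against 61% of all 9324 genes tested, so the count stands not far from that of genes in general. The sizes were further from it. Culture numbers spanned at least 2 on the log2 scale in 4 of the 15 (SPRR1B, IVL, SPRR1A and FLG), against 2.22% of genes tested, and at least 4 in SPRR1B and IVL, against 0.247%. SPRR1A was tested only because of its height on number 3, so neither its call nor its span is support, though both are counted here. LCE3B, LCE3D and S100A10 did not pass the F-test, with adjusted p = 0.235, 0.174 and 0.181.

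In gene order (RefSeq, GRCh38.p14, used for neighbourhood only) the genes that were high on number 3 were not contiguous. IVL, SPRR1A and SPRR1B stand close together, but SPRR4, between IVL and SPRR1A, and SPRR3, between SPRR1A and SPRR1B, stayed below the limit on every array, from 3.74 to 4.96. The same held for all 7 SPRR2 genes and LORICRIN, which lie between SPRR1B and the neighbours PGLYRP3 and PGLYRP4. Of the 43 genes below the limit, PGLYRP3 and PGLYRP4 were the only 2 whose numbers spanned at least 1, against 1.09% of all genes below it, and both spanned at least 2, against 0.122%. These spans use values below the limit on numbers 1 and 2, so their sizes are not determined. With such values set to the limit, PGLYRP4 spanned at least 0.87 and PGLYRP3 at least 0.30. In the F-test over all 22411 genes, which called 25.1% of them, PGLYRP4 and PGLYRP3 passed (adjusted p = 0.0039 and 0.0068), as did 18 of the 58 in all.

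**Figure D2:**
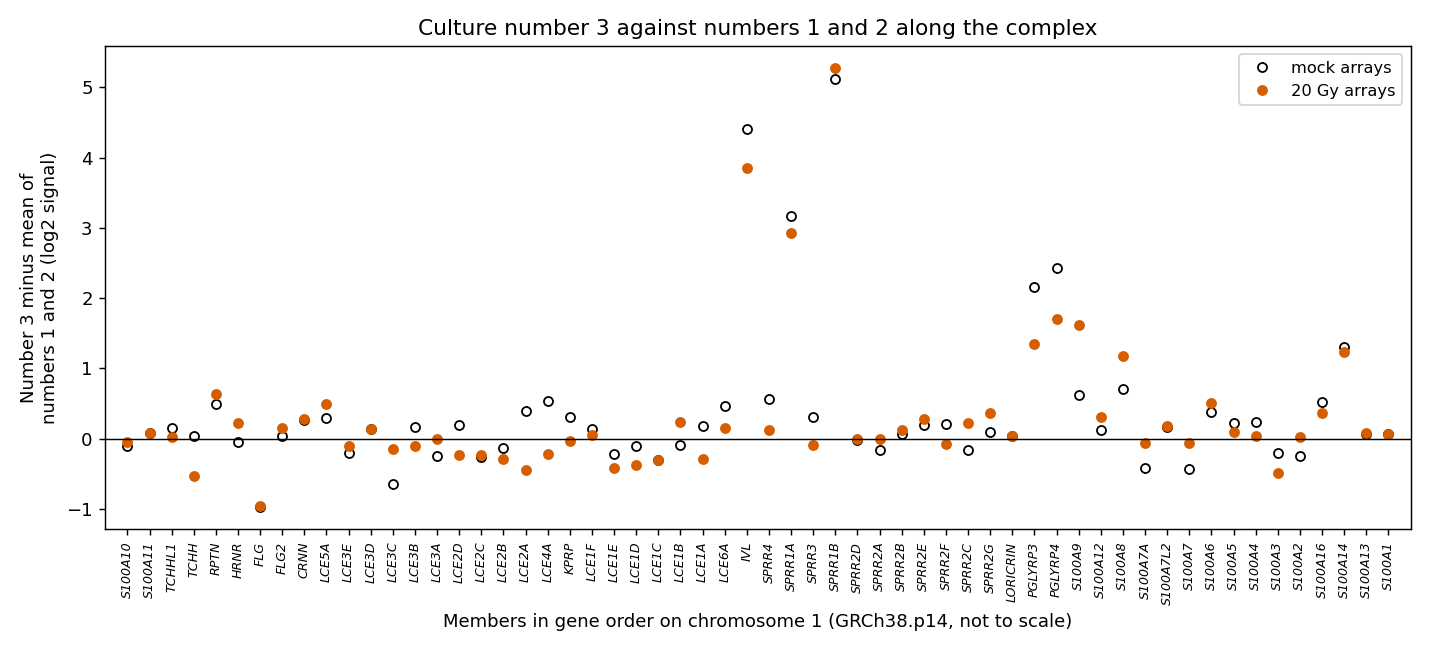
Signal on the number 3 array minus the mean of numbers 1 and 2 (log2, y axis) for all 58 genes in chromosome order (x axis, not to scale), with mock arrays as open and 20 Gy arrays as filled points. IVL, SPRR1A and SPRR1B reach 2.92 or more in both groups, PGLYRP3 and PGLYRP4 1.35 or more, and FLG lies at -0.97 and -0.96.

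The bases before the start are shown for genes that varied most between cultures: IVL, SPRR1A, SPRR1B and PGLYRP4, which were highest on number 3, and FLG, which was highest on number 1. They are RefSeq promoters of build GRCh38.p14, 250 bases up to the transcription start, written on the gene's strand. Capitals mark the AP-1 motif TGANTCA and the TATA motif TATAAA, both searched on either strand, and these motifs do not overlap here. S100A14, which fell after irradiation (below), is added, and it and PGLYRP4 hold neither motif in this window.
IVL (chr1:152908296-152908545, plus strand): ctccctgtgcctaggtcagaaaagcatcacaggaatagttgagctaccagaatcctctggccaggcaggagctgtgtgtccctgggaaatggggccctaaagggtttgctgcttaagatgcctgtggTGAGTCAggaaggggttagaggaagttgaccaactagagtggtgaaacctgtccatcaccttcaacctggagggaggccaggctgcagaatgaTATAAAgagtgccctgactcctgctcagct
SPRR1A (chr1:152983831-152984080, plus strand): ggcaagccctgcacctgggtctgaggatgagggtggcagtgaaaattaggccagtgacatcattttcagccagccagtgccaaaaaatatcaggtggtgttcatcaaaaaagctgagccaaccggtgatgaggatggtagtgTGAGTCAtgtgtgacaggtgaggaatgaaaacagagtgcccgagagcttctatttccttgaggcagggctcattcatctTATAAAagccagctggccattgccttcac
SPRR1B (chr1:153030953-153031202, plus strand): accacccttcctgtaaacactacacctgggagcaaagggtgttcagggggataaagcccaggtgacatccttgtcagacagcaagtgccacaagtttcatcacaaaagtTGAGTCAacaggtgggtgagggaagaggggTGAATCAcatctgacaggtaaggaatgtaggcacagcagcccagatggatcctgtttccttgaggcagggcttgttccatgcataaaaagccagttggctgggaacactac
FLG (chr1:152325240-152325489, minus strand): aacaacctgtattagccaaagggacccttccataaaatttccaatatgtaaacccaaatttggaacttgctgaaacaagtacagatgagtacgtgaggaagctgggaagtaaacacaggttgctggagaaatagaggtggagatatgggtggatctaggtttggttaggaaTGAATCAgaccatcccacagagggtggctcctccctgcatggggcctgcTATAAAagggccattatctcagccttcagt
PGLYRP4 (chr1:153348842-153349091, minus strand): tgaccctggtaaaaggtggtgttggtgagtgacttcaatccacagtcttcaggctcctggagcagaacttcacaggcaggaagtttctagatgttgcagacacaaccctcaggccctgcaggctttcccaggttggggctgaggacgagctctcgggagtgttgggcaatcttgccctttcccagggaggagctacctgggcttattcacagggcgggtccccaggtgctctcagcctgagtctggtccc
S100A14 (chr1:153616326-153616575, minus strand): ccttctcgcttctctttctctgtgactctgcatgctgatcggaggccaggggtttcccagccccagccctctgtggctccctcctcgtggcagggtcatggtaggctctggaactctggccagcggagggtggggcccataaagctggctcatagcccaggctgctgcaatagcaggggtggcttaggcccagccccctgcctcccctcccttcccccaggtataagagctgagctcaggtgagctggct

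The AP-1 motif begins 123 bases before the start in IVL, 108 in SPRR1A, 141 and 111 in SPRR1B and 79 in FLG. TATA motifs begin 30, 29 and 30 bases before the start in IVL, SPRR1A and FLG. Of 53 of the 58 genes with a RefSeq promoter, 18 (34.0%) held an AP-1 motif and 29 (54.7%) a TATA motif in the window, against 8.06% and 13.0% of 27305 genes. The motif is no mark of the genes that were measured as high: LORICRIN, CRNN and SPRR3 hold it and lay below the limit on every array. A match of letters is not evidence of binding.

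Irradiated and mock arrays were then compared within numbers (limma with the culture number as a block, Benjamini-Hochberg adjusted over the 9324 genes above the limit, two-sided). FLG rose and S100A14 fell, and the other 13 of the 15 did not pass the 0.05 threshold. That is 2 of 15, against 5.01% of all genes tested (1.3% higher and 3.71% lower). The count stayed at 2 with a limit raised by 1 (6.31% of genes), with clusters of a symbol averaged (5.71%) and with no variance trend (4.87%). It was 1 after quantile normalization (2.18%) and cyclic loess (1.92%) and 3 after median centring (2.89%). It was 2, 0 and 1 without numbers 1, 2 and 3 (2.69%, 0.708% and 1.5%). Without the block 0 of the 15 passed (0 at unadjusted p under 0.05), as did 0 of 9324 genes in all (312 at unadjusted p under 0.05), so every irradiation call here rests on pairing by number. Tested over all 22411 genes, bright or dim, with the block, 0 passed as well (4905 at unadjusted p under 0.05, 17 of the 58 among them).

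FLG was 8.88 ± 1.25 in mock and 9.37 ± 1.06 in irradiated cultures (log2 signal, SD, n = 3 per group). It was higher by 0.28, 0.71 and 0.51 in pairs 1, 2 and 3, a mean of 0.50 (1.41-fold, 95% interval 0.26 to 0.73, adjusted p = 0.0444). Every irradiated array exceeded its mock partner, while the groups overlapped because of the height of number 1. The call held after quantile normalization (0.57, adjusted p = 0.0430), cyclic loess and median centring, but not without number 2 (0.39, adjusted p = 0.158) or without number 3 (0.49, adjusted p = 0.103).

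S100A14 was 13.14 ± 0.79 in mock and 12.74 ± 0.78 in irradiated cultures (SD, n = 3 per group). It fell by 0.47, 0.28 and 0.44 in the pairs, a mean of -0.40 (0.760-fold, 95% interval -0.59 to -0.20, adjusted p = 0.0457). The decrease lay in the direction in which bright genes moved as a whole, since the 9324 genes had a median difference of -0.089. The call was lost after quantile normalization (-0.31, adjusted p = 0.0977), cyclic loess (-0.31, 0.104) and median centring (-0.30, 0.103), and without any 1 of the 3 numbers (-0.36, -0.46 and -0.37 without numbers 1, 2 and 3).

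**Figure D3:**
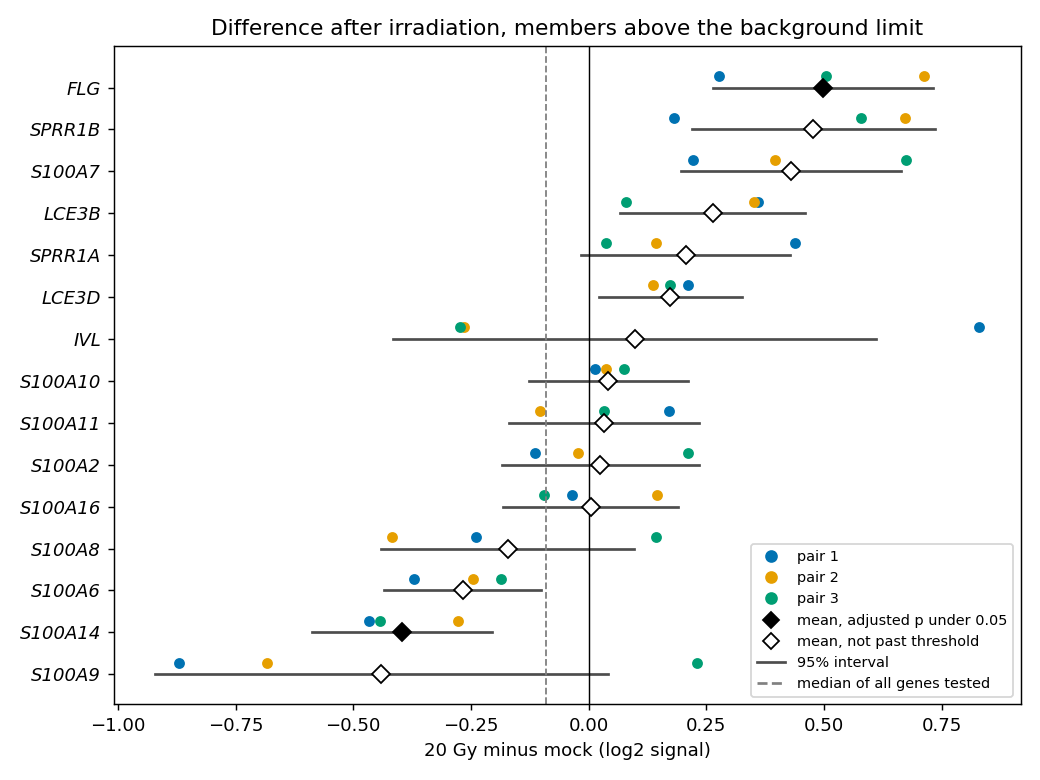
Irradiated minus mock log2 signal (x axis) of the 15 genes above the background limit. Small points are the 3 pairs, diamonds their mean with its 95% interval, filled where the adjusted p is under 0.05, and the dashed line is the median of all 9324 genes tested (-0.089). FLG and S100A14 are the filled diamonds, and the pairs of IVL and S100A9 lie on both sides of 0.

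Of the envelope precursors, SPRR1B differed by 0.48, with 0.18, 0.67 and 0.58 in the pairs (95% interval 0.22 to 0.74, adjusted p = 0.0547). It missed the threshold narrowly on the deposited values and passed after median centring (0.58, adjusted p = 0.0418) and without number 1 (0.63, adjusted p = 0.0306). It did not pass without number 2 or 3 (limma, adjusted p = 0.207 and 0.138). Mock array 1 and irradiated array 2 lay under the brightest control set of their own array, so the sizes in pairs 1 and 2 are uncertain. SPRR1A differed by 0.21, with 0.44, 0.14 and 0.037 in the pairs (adjusted p = 0.198). Its arrays in pairs 1 and 2 lay below the limit, so the size of those differences is not determined.

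IVL had a mean difference of 0.098 that joins opposite pairs, 0.83 in number 1 against -0.26 and -0.27 in numbers 2 and 3 (95% interval -0.42 to 0.61, adjusted p = 0.790). Without number 1 it was -0.27 (adjusted p = 0.120). The interval spans changes of either sign larger than that of S100A14.

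The 9 SPRR genes below the limit also had means above mock, by 0.15 (SPRR2B) to 0.64 (SPRR2A). Most dim genes had this direction, 9384 of the 13087 below the limit. SPRR2A read 3.92, 4.39 and 3.997 on mock and 4.31, 5.16 and 4.74 on irradiated arrays, which overlap. SPRR2E, which had the highest mean of these, had 0.43, -0.14 and 0.23 in the pairs. In all, 5 of the 9 were higher in every pair, against 36.4% of all 13087 genes below the limit, whose median difference was 0.066. Sizes below the limit are not determined, and the SPRR2 genes are close paralogs whose probes may share signal, which was not tested.

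LCE genes stayed near background. LCE3B and LCE3D, of the LCE group linked to injured and inflamed skin, were the 2 of 18 with a mean above the limit. LCE3B read 6.28, 6.49 and 6.55 on mock and 6.64, 6.84 and 6.63 on irradiated arrays (difference 0.26, adjusted p = 0.102), and LCE3D differed by 0.17 (adjusted p = 0.138). In both the irradiated arrays lay above all mock arrays without passing the test, and mock array 1 of LCE3D, at 5.93, was below the limit. Groups that do not overlap were found in 9.23% of genes above the limit.

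The other 16 LCE genes differed by between -0.20 (LCE2B, which was above the limit on 3 arrays and read 6.09, 6.12 and 5.98 on mock against 6.04, 5.87 and 5.67 on irradiated arrays) and 0.28 (LCE3C, with -0.0057, 0.24 and 0.60 in the pairs). Only 1 was higher and 2 were lower in every pair, against 36.4% and 9.14% of genes below the limit. Loricrin (LORICRIN), the bulk protein of the mature envelope, lay at 4.04 ± 0.13 in mock and 4.11 ± 0.069 (SD, n = 3) in irradiated cultures, below the limit throughout. Over all 43 genes below the limit 7 had groups that did not overlap, against 18.6% of genes below it.

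Fused S100 genes other than FLG were below the limit on every array. TCHH (trichohyalin, of hair follicle and tongue), the one of these with the highest mean, had 0.48, -0.29 and -0.48 in the pairs. CRNN (cornulin) had the largest mean difference of the 6, 0.32, with 0.44, 0.20 and 0.32. FLG2, a neighbour and relative of FLG, read 3.40, 3.43 and 3.46 on mock against 3.19, 3.23 and 3.35 on irradiated arrays. Its level is not set against that of FLG, since brightness depends on the probes.

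**Figure D4:**
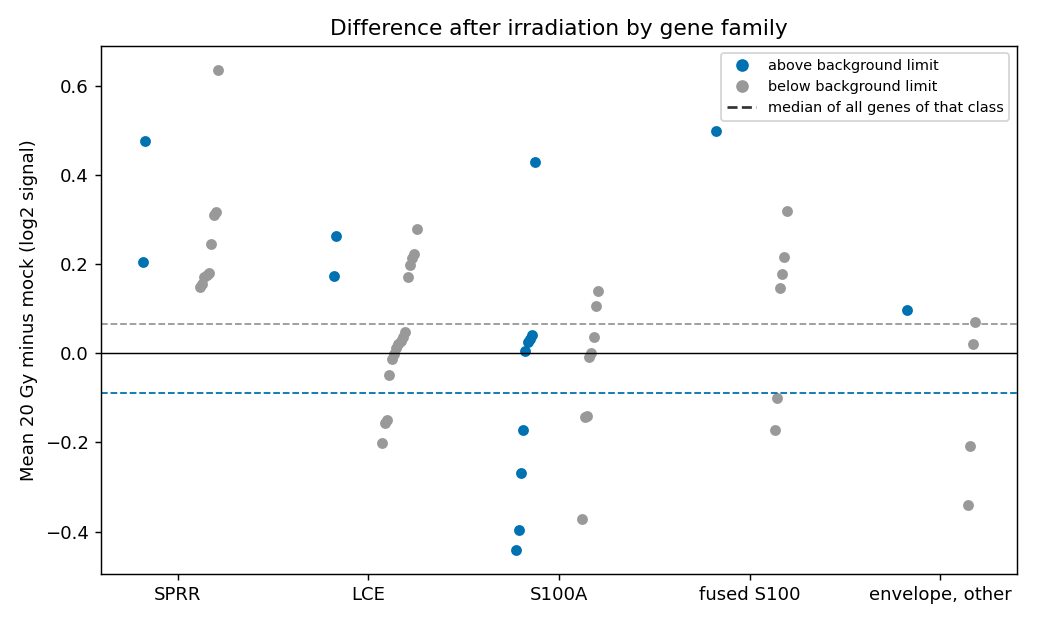
Mean irradiated minus mock difference (log2 signal, y axis) of each of the 58 genes by family (x axis), with blue points above and grey points below the background limit. Dashed lines are the medians of all genes above (-0.089, blue) and below the limit (0.066, grey). All 11 SPRR genes lie above 0, from 0.15 to 0.64, and the other families lie on both sides. Of the 11, 9 are below the limit, where 9384 of all 13087 genes lie above 0.

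The S100A family had 9 of 17 genes above the limit, with a median difference of 0.0049 and a range from -0.44 to 0.43. S100A7 read 7.25, 6.37 and 6.38 on mock and 7.47, 6.76 and 7.05 on irradiated arrays. It was higher in every pair, by 0.22, 0.40 and 0.67 (mean 0.43, 95% interval 0.20 to 0.66, adjusted p = 0.0553), and passed after median centring only (0.53, adjusted p = 0.0399).

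Calprotectin genes differed between pairs in sign. S100A9 read 7.97, 8.01 and 8.61 on mock and 7.10, 7.33 and 8.84 on irradiated arrays, or -0.87, -0.68 and 0.23 in the pairs (mean -0.44, 95% interval -0.92 to 0.040, adjusted p = 0.201). S100A8 had -0.24, -0.42 and 0.14 (mean -0.17, adjusted p = 0.347). Both were lower in numbers 1 and 2 and higher in number 3. Without number 3, S100A9 was -0.78 and passed (adjusted p = 0.0317), and S100A8 was -0.33 and did not (adjusted p = 0.123). S100A9 did not pass without number 1 or 2 (limma, adjusted p = 0.524 and 0.478). Pair 3 was the one of opposite sign, so the pass without it is no support. Whether pair 3 differs from the others was not tested, as there is 1 pair of each number.

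S100A6 (calcyclin) was lower in every pair, by 0.37, 0.25 and 0.19 (mean -0.27, 95% interval -0.44 to -0.10, adjusted p = 0.0718), and both number 2 arrays were below the limit. The remaining bright members had intervals that bound any change on the deposited scale, given the pairing by number. S100A10, the annexin A2 partner p11, differed by 0.042 (95% interval -0.13 to 0.21), S100A11 by 0.033 (-0.17 to 0.24), S100A2 by 0.025 (-0.18 to 0.24) and S100A16 by 0.0049 (-0.18 to 0.19). Irradiated and mock arrays of these 4 overlapped. After median centring the differences were 0.14, 0.13, 0.12 and 0.10 in the same order, and none passed.

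Below the limit, S100A3 read 5.75, 5.36 and 5.35 on mock and 5.33, 5.21 and 4.79 on irradiated arrays, with the irradiated arrays all below the mock arrays. S100A13 and S100A4 straddled the limit, with means of -0.14 and -0.14. PGLYRP4 had -0.16, -0.044 and -0.82 in the pairs and PGLYRP3 0.17, -0.043 and -0.75. The largest difference of each was in number 3, where its signal lay highest. Their arrays in pairs 1 and 2 lay below the limit, as did irradiated array 3 of PGLYRP3. The pairs thus cannot be compared in size. Over all 15 genes above the limit the median difference was 0.042, against -0.089 for all genes tested. Of these 15, 7 were higher in every pair, against 9.94% of genes tested, and 2 were lower in every pair, against 41.9%. These shares depend on brightness, since 36.4% of genes below the limit were higher and 9.14% lower in every pair. The 7 include LCE3B and LCE3D, near the limit, and SPRR1A, below it in pairs 1 and 2. After median centring of the arrays the median of the 15 was 0.14, against 0.0093 for all genes tested.

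Other genes of cornification were taken from lists written down with earlier results known, and their counts stand beside the 5.01% of all genes tested that passed. Of 7 suprabasal keratin and desmosome genes 2 were above the limit, and both fell: KRT1 by 0.53 (adjusted p = 0.0470) and KRT10 by 0.36 (adjusted p = 0.0470), the keratin pair of the first suprabasal cells. Irradiated arrays 1 and 2 of KRT1 lay below the limit, so the size of its differences in those pairs is not determined. Both calls were lost under all 3 rescalings, where KRT1 ran from -0.50 to -0.43 and KRT10 was -0.26. They were also lost with any 1 number left out, where KRT1 ran from -0.62 to -0.38 and KRT10 from -0.40 to -0.33. Outside this list, DSP (desmoplakin) of the keratinocyte markers fell by 0.42 (adjusted p = 0.0360), while the other 9 markers above the limit did not pass. Whether the DSP call holds after rescaling or with a number left out is not given here. KRT1 read 6.36, 6.36 and 16.88 on mock and 5.96, 5.53 and 16.52 on irradiated arrays, at least 1465-fold higher on number 3 than on number 2, and 0 of the 9324 genes spanned more. KRT10 spanned 5.38, with number 3 again highest.

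Of the 12 cross-linking and other envelope genes 5 were above the limit and 0 passed, with PPL (periplakin) at -0.25 (adjusted p = 0.0823) and DMKN (dermokine) at -0.15 (0.192). Of 9 measured proteases and inhibitors 7 were above it and 0 passed, with the squamous serpins SERPINB4 at -0.51 (0.142) and SERPINB3 at -0.48 (0.157). Of 13 measured regulators of late differentiation 7 were above it and 0 passed, with KLF4 at 0.19 (0.171) and CEBPB at 0.16 (0.221). Of 9 S100 partners and receptors 7 were above it and 0 passed, with AHNAK, which binds S100A10 and annexin A2, at -0.47 (0.0673) and ANXA11 at -0.16 (0.182). The 4 S100 genes elsewhere in the genome (S100B, S100P, S100G and S100Z) were all below the limit.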

How the data were processed

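RNA from 6 HaCaT cultures was measured on arrays, 1 per culture. The authors deposited log2 signals per transcript cluster, made with RMA per the submitters' processing notes. For its version and the genome build the sources used here name nothing. Values reach 19.93 on the log2 scale, above the 16 that a 16-bit scanner reading can give, so a further stretch of the scale is possible and folds are on the deposited scale. An exon-level table was not used, since no table here pairs its features with genes.

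Of 70523 features 67528 were transcript clusters, 23781 of them with 1 symbol (1543 had several and were not named). Symbols were updated through RefSeq tables of GRCh38.p14, and the cluster with the highest mean stood for a gene. The 58 genes had 1 cluster each. Groups and numbers come from the sample titles. After group means were removed, arrays sharing a number correlated at 0.523, 0.644 and 0.705, and arrays of different numbers at -0.555 to 0.0721, so the numbers were taken to pair the cultures. The irradiation test was limma 3.58.1 under R 4.3.3 (lmFit, eBayes with a variance trend, number as a block, Benjamini-Hochberg, threshold 0.05) over 9324 genes brighter on average than the background limit, and the numbers with the moderated F-test of the same fit. The fit was checked on simulated data, with changes larger than those of the members called, so the check does not bear on calls of their size.

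The members, lists, the limit on dim genes and the paired fit were chosen with earlier results of these data known. Named were all members above the limit, members above it on any array, in each family below it the one with the highest mean and the one with the largest difference, and in each companion list at most 4 called genes, or failing any the 2 of smallest p. Other genes named were chosen after their values were seen. P-values of the fits with the block weigh a difference against the spread left after treatment and culture number are fitted, moderated over genes. In the irradiation test, differences between culture numbers are thus taken out. The number of arrays limits precision.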

Additional observations from a re-analysis of the deposited data

How the results depend on the processing

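The irradiation calls depended on the fit. Members called went from 2 to 0 without the replicate block, over all genes with a single symbol and over all transcript clusters with the block or (an alternative chosen after seeing the data) without it, to 1 after quantile normalization or cyclic loess, and ran from 0 to 2 with 1 number left out. All genes called went from 467 to 0 in those 4 fits (312, 4905, 10237 and 4822 at unadjusted p under 0.05), to 203, 179 and 269 after quantile normalization, cyclic loess and median centring, and ran from 66 to 251 with 1 number left out. Of calls, 25.9% were increases on the deposited values, 58.6%, 64.8% and 66.9% after these 3 rescalings. The members' median difference moved from 0.042 to 0.13, 0.14 and 0.14. That of all genes tested moved up as well, from -0.089 to -0.015, -0.0092 and 0.0093. Members differing between numbers (12) stayed within 1.5 times of that in every fit with the block, and ran from 8 to 9 with 1 number left out, while all genes differing ran from 3104 to 4896 against 5687. With 1 number left out, differences ran from -0.035 to 0.10 for S100A11, -0.068 to 0.095 for S100A2, -0.065 to 0.055 for S100A16 and -0.27 to 0.28 for IVL, so each turned sign, without passing the test. Fits that leave out a number rest on 2 pairs. The 43 members below the limit carry too little signal over background for their sizes to be read.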

Other observations

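Of the companion genes, 3 are given here for their differences between culture numbers, chosen after their values were seen. Others, such as DMKN and ANXA1, were highest on number 2. DSG1, a suprabasal desmosomal cadherin, read 4.33, 4.16 and 7.84 on mock and 4.46, 4.24 and 7.44 on irradiated arrays, above the limit on number 3 only, like SPRR1A and PGLYRP4. CASP14, the caspase that takes part in breaking down filaggrin, read 7.46, 4.54 and 4.58 on mock and 6.59, 4.20 and 5.07 on irradiated arrays, highest on number 1 as FLG was. CSTA (cystatin A, an envelope component) spanned 1.79 with number 3 highest.

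SERPINB3 and SERPINB4 shared the signs of S100A8 and S100A9 in the pairs. SERPINB3 had -0.77, -0.83 and 0.15, and SERPINB4 -0.81, -0.84 and 0.12. Without number 3 they were -0.80 (limma, adjusted p = 0.0241) and -0.82 (adjusted p = 0.0240), and both then passed. Without numbers 1 and 2 neither passed (limma, adjusted p = 0.380 and 0.451 for SERPINB3, 0.347 and 0.410 for SERPINB4). Number 3 was the pair of opposite sign, so the passes without it are no support. These 4 genes were chosen after their values were seen, and SERPINB3 and SERPINB4 are close paralogs whose probes may share signal, which was not tested.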
